A study of Homo sapiens with 6 samples.

Results

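The genes described here are 9 atypical cadherins of HaCaT keratinocytes: the giant cadherins FAT1, FAT2, FAT3 and FAT4, the Dachsous cadherin DCHS1, the seven-pass cadherins CELSR1 and CELSR2, and the protocadherins PCDH1 and PCDH7. They were taken by symbol from a table of 46287 gene rows, and 9 of 9 were found. RNA was measured by bulk sequencing of stranded total-RNA libraries in 2 groups of 3 libraries. The control group is unedited wild-type HaCaT, and the knockout group carries, per its label, a homozygous SDR42E1 knockout made with CRISPR/Cas9. HaCaT cells are human epidermal keratinocytes that became immortal in culture without an introduced gene, and both groups were grown without a treatment named in the labels and harvested before confluence. The replicates are described as biological, but neither separate cultures nor the number of edited clones is stated, so the tests measure only the spread between these libraries. The study asked how loss of SDR42E1, a short-chain dehydrogenase linked to vitamin D, changes the transcriptome. The 9 genes were chosen by family name with their log2 fold changes of knockout over control already known, FAT3's large fall among them, so their own differences are given as a description, without p-values.

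Cadherins are membrane proteins whose extracellular repeats bind calcium and hold neighbouring cells together. The atypical members do not anchor the cell through the catenins that classical cadherins use. FAT and Dachsous proteins bind each other across cell borders and pass on polarity and growth control, in part through the Hippo pathway. CELSR proteins are core components of planar cell polarity, the alignment of cells within the plane of an epithelium such as the epidermis, and protocadherins mediate weaker, selective adhesion and signalling.

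Library totals ran from 11504473 to 16928201 counts. SDR42E1 itself was at 47.7 ± 1.02 CPM in control and 21.3 ± 1.61 CPM in knockout libraries (SD, n = 3 each), so its RNA was lower and still present. Of 12 tested genes within 2 Mb of SDR42E1, 12 were below 0 on the log2 scale (median -0.47). Their relation to its fall was not tested. CPM here is the usual depth-scaled count, taken over the TMM-adjusted library size. Of 8 keratinocyte markers 8 were tested, and their summed level was 7052 to 7521 CPM in control and 7067 to 7416 CPM in knockout libraries, which overlap. Single markers moved all the same: 6 rose, among them ITGB4 by 0.76 and ITGA6 by 0.51 on the log2 scale, KRT5 fell by 0.66, and KRT14, at -0.07, did not pass. Markers of other cell types were low in sum: 3.90 to 5.61 against 1.12 to 1.92 CPM for fibroblasts (control against knockout; PDGFRA and DCN at 0 in all libraries), 3.65 to 4.28 against 1.92 to 2.66 CPM for endothelium, 24.1 to 24.9 against 19.5 to 23.5 CPM for melanocytes (mostly MITF; TYR at 0) and 1.54 to 3.02 against 1.30 to 2.89 CPM for neural cells (SNAP25 and STMN2 at 0). Immune markers summed to 5.40 to 8.45 against 8.13 to 9.68 CPM, mostly CD68, with CD3E at 0. In bulk libraries, fewer cells of a type and less RNA per cell cannot be told apart.

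Of the 9 genes, 8 passed the filter on low counts, and DCHS1 did not. With a threshold of 0.05 on the p adjusted by the Benjamini-Hochberg method in edgeR's quasi-likelihood fit of 12293 genes, 6 of these 8 were called different, 5 lower (FAT2, FAT3, FAT4, CELSR2 and PCDH7) and 1 higher (PCDH1) in the knockout. Over all tested genes 50.4% were called, 25.8% lower and 24.6% higher. Falls of at least 2-fold were seen in 3 of the 8, FAT3, PCDH7 and FAT4, where 5.23% of all tested genes had one. The median log2 fold change of the 8 was -0.36, beside -0.004 over all tested genes. The groups did not overlap in 7 of the 8, beside 56.5% of all tested genes (29% lower and 27.5% higher in the knockout). Nothing is read from these shares, since the genes were chosen with this comparison in view.

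**Figure D1:**
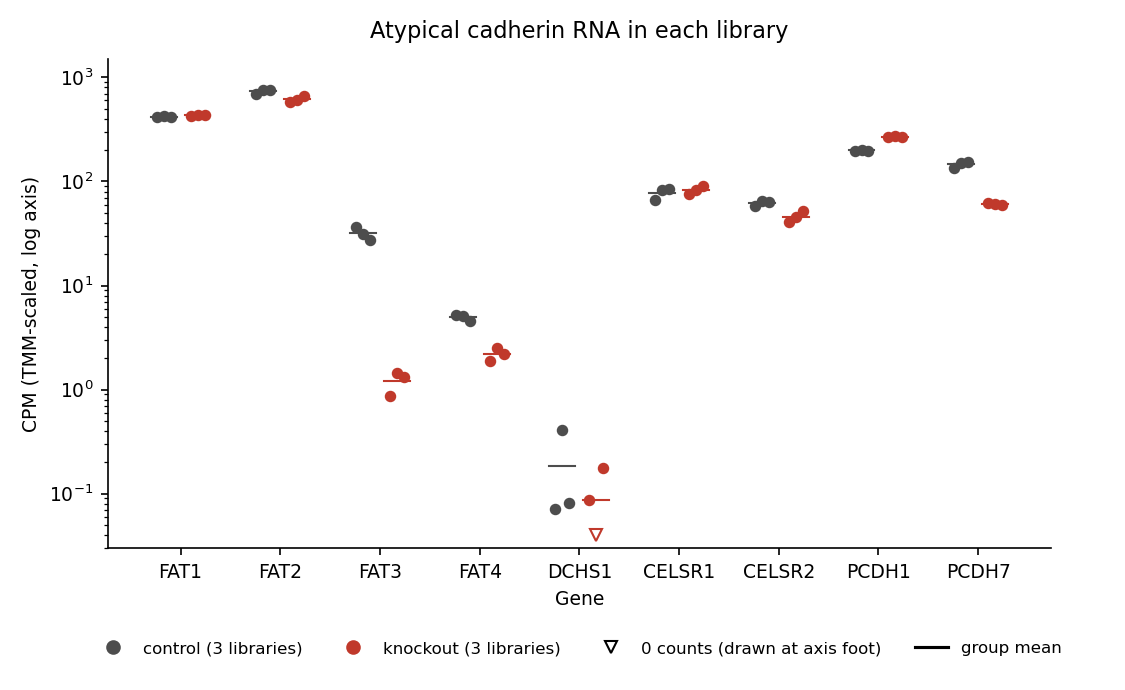
CPM of each of the 9 genes (log axis) in 3 control and 3 knockout libraries, 1 point per library, with the group mean as a line; the open triangle marks the knockout library with 0 DCHS1 counts. FAT3 stands between 27.5 and 36.8 CPM in control and between 0.865 and 1.44 CPM in knockout libraries; CPM is not per length, so heights compare libraries within a gene and not genes.

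Levels between genes were compared per kilobase of exon, as CPM divided by the merged exon length of a gene's coding transcripts. In control cells FAT2 was the most abundant of the 9, at 50.7 ± 2.46 CPM per kilobase, followed by PCDH1 at 35.8 ± 0.276, FAT1 at 27.3 ± 0.326 and PCDH7 at 12.4 ± 0.806 (SD, n = 3). CELSR1 (6.79 ± 0.848) and CELSR2 (5.94 ± 0.321) came next, and these 2 were the one pair of neighbours in the order whose ranges over control libraries overlapped. FAT3 stood at 1.66 ± 0.243, FAT4 at 0.305 ± 0.0228 and DCHS1 at 0.0173 ± 0.0176 CPM per kilobase. In knockout cells PCDH1 led at 48.5 ± 1.06, ahead of FAT2 at 42.3 ± 2.65, and FAT3, at 0.0630 ± 0.0158, stood below FAT4, at 0.135 ± 0.0186. No neighbouring ranges overlapped in the knockout order. With the length of the longest coding transcript in place of the merged length the 2 orders were the same, except that PCDH7 then stood above CELSR1 in the knockout (8.95 against 7.25 CPM per kilobase, or 5.12 against 7.16 with the merged length).

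RefSeq promoter entries were found for 5 of the 9 genes: FAT1, FAT2, CELSR2, PCDH1 and PCDH7. FAT3, FAT4, DCHS1 and CELSR1 had none. The 250 bases before the annotated start are shown for the pair of large keratinocyte FAT genes and for the protocadherins that moved in opposite directions, with the GC box (GGGCGG) and the CCAAT box (CCAAT) in capitals, both strands searched (GRCh38.p14, 5′ to 3′).
FAT1, minus strand, chr4:186726697-186726946: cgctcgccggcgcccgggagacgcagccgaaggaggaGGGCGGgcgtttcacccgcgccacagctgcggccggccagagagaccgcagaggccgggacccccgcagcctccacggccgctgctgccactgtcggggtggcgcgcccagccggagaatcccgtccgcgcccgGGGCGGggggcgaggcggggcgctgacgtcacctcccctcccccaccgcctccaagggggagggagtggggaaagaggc
FAT2, minus strand, chr5:151591332-151591581: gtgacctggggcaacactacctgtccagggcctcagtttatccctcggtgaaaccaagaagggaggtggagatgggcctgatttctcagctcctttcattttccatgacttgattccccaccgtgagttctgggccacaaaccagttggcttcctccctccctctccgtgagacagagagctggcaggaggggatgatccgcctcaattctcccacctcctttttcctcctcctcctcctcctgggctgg
PCDH1, minus strand, chr5:141869628-141869877: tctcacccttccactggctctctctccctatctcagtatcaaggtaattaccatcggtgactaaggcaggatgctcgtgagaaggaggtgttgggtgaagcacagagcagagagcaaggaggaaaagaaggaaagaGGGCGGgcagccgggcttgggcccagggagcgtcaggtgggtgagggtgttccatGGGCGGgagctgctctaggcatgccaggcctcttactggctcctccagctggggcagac
PCDH7, plus strand, chr4:30720119-30720368: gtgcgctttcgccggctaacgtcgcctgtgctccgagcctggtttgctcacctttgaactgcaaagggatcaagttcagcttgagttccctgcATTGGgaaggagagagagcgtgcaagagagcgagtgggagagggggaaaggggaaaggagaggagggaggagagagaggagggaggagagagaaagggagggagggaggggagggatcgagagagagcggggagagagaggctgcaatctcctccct
The FAT1 window held 32 CG dinucleotides and 2 GC boxes, and a further FAT1 start listed in RefSeq also had 32 CG dinucleotides, with 3 GC boxes. The FAT2 window held 4 CG dinucleotides and no match, the PCDH1 window 6 with 2 GC boxes, and the PCDH7 window 10 with 1 CCAAT box; the median over 35097 promoter windows of this length was 11. The CELSR2 window, not printed, held 23 CG dinucleotides, 1 GC box and 1 CCAAT box. A GC box was present in 42.63% and a CCAAT box in 32.0% of all windows. The TATA box (TATAAA), the TEAD core (GGAATG), the AP-1 site (TGANTCA) and the E-box (CACGTG), present in 10.72%, 11.89%, 6.57% and 6.34% of all windows, had no match in these 6 windows of 5 genes, and no matches overlapped. A match is only a run of letters, and the start used in HaCaT cells was not measured; the PCDH1 start shown lies inside the annotated span of the gene given further on.

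FAT3 fell furthest among the 9. It is a giant cadherin best known from the nervous system, where it shapes neurons of the retina. It lies on chromosome 11 (plus strand), from 92352096 to 92896470 (GRCh38), a span of 544.4 kb, and its longest coding transcript has 25 exons. Control libraries held 511, 541 and 339 counts, or 36.8, 31.3 and 27.5 CPM. Knockout libraries held 10, 19 and 15 counts, or 0.865, 1.44 and 1.31 CPM. Each knockout library lay far below each control library, and none was at 0. The log2 fold change was -4.70 (SE 0.17), a fall of 26.0-fold. From the summed counts alone, 1391 against 44, the ratio was 26.3 with a 95% interval of 19.5 to 36.3 that covers counting error only. The control libraries varied more than counting allows, with a coefficient of variation of 14.6% where counting alone gives 4.64%, and the knockout libraries did not, at 25.1% against 26.1%.

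The genes around FAT3 did not show such a fall. Within 2 Mb on each side 13 other genes were tested, and their log2 fold changes ran from -0.52 to 1.05 around a median of 0.31. Of these 8 rose and 3 fell. AMOTL1, an angiomotin family gene that takes part in Hippo signalling and is described further on, was among the neighbours that rose.

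FAT4, the receptor for DCHS1 in the Fat-Dachsous pair, was a gene of low level that fell. It lies on chromosome 4 from 125316399 to 125492932, on the plus strand, with 17 exons in its longest coding transcript. It had 73, 88 and 56 counts in the control libraries, or 5.25, 5.09 and 4.55 CPM, against 22, 33 and 25 in the knockout libraries, or 1.90, 2.51 and 2.19 CPM. The groups did not overlap, and the log2 fold change was -1.17 (SE 0.24), a fall of 2.25-fold. The spread over libraries was within counting error in both groups (7.46% against 11.8% in control, 13.7% against 19.4% in knockout). Only 2 other genes within 2 Mb were tested, ANKRD50, which fell by 1.19 on the log2 scale, and SPATA5, at 0.09, which did not pass. FAT4 is also a gene of connective tissue, and the summed fibroblast markers given above were low in both groups and lower in the knockout. That sum was mostly COL3A1 and COL1A1, the 2 of these 6 markers that were tested. COL3A1 fell, from 31, 56 and 20 counts to 0, 0 and 4, and COL1A1 did not pass (log2 fold change -0.59, SE 0.33). COL1A2 had 1, 3 and 0 counts in control and 0, 0 and 1 in knockout libraries. LUM had 1 count, in control replicate 3, and PDGFRA and DCN had 0 throughout. Any part of fibroblast RNA in the FAT4 value was not tested.

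DCHS1, the ligand of FAT4, was close to absent. It lies on chromosome 11 (minus strand), from 6621323 to 6655854 and its coding transcript has 21 exons. It had 1, 7 and 1 counts in control and 1, 0 and 2 in knockout libraries, so the groups overlapped, and control replicate 2 held 7 of the 9 control counts. The summed counts give 0.207 CPM in control (95% counting interval 0.0946 to 0.393) and 0.0829 CPM in knockout libraries (0.0171 to 0.242). The ratio of 2.49 has an interval of 0.623 to 14.3, so a difference was not detectable at this depth. The related ligand gene DCHS2 had 0 counts in 6 of 6 libraries. A floor of 3 counts over the summed libraries is 0.0690 CPM in control and 0.0829 CPM in knockout libraries. The exact 95% intervals reach up to 0.0848 and 0.102 CPM. FJX1, which encodes a Golgi kinase of the Four-jointed family that modifies Fat and Dachsous repeats in flies, was measured well above both. It went from 23.1 to 40.5 CPM, a rise of 0.81 on the log2 scale (SE 0.09; named after its value was seen).

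**Figure D2:**
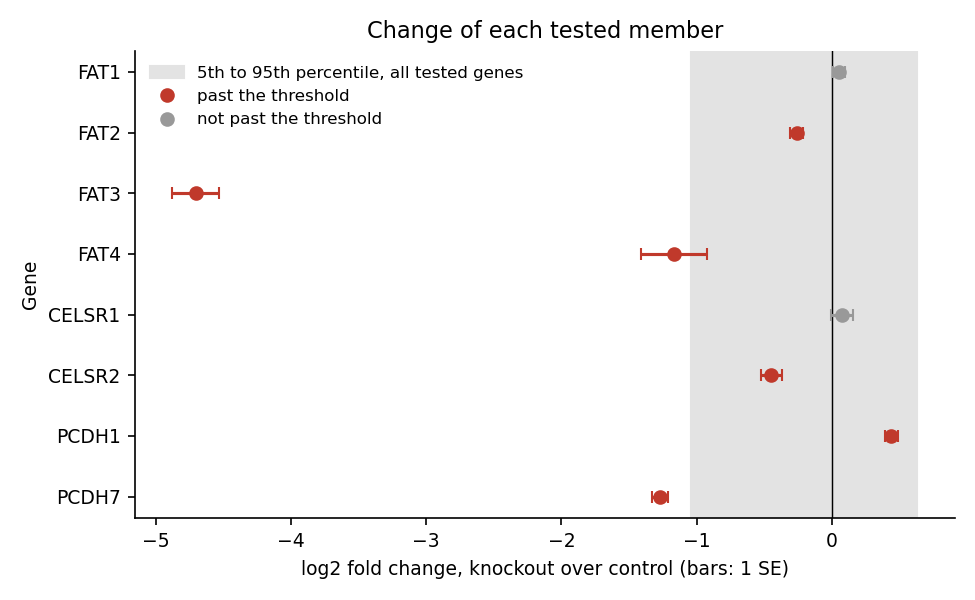
Log2 fold change of knockout over control for the 8 tested genes, with bars of 1 SE; the shaded band spans the 5th to 95th percentile of all tested genes. FAT3 at -4.70, PCDH7 at -1.27 and FAT4 at -1.17 lie outside the band, and the other 5 lie inside it.

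FAT1 and FAT2 carried most of the reads of the 9 genes. FAT1 regulates actin at cell contacts and is a tumour suppressor in squamous epithelia, and FAT2 is a FAT cadherin of squamous epithelium that acts at the leading edge of migrating epithelial cells. FAT1 lies on chromosome 4 (minus strand), from 186587783 to 186726722, with 27 exons in its longest coding transcript. Its counts were 5772, 7310 and 5095 in control and 4917, 5742 and 5011 in knockout libraries. In CPM these were 415, 423 and 414 against 425, 436 and 438. The groups lay just apart, but the log2 fold change of 0.05 (SE 0.05) did not pass the threshold, and the libraries of a group varied about as much as counting alone allows (1.19% against 1.28% in control).

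FAT2 lies on chromosome 5 (minus strand), from 151504093 to 151568944 in the gene annotation, with 23 exons in its longest coding transcript. The RefSeq start used for the promoter window above lies upstream of that span. It had 9679, 13141 and 9317 counts in the control libraries, or 697, 760 and 756 CPM, against 6757, 7945 and 7529 in the knockout libraries, or 584, 603 and 658 CPM. Each knockout library was below each control library, by a small step: the log2 fold change was -0.26 (SE 0.05), a fall of 1.20-fold. Among 23 tested genes within 2 Mb the median was 0.25, with 13 rises and 4 falls, so FAT2 fell where most of its neighbours did not. SPARC, a matrix protein gene close by, fell by 1.65 on the log2 scale.

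CELSR2 fell and CELSR1 did not pass the threshold. Both encode seven-pass cadherins of planar polarity, and CELSR1 is the one best known for hair follicle alignment in the epidermis. CELSR1 lies on chromosome 22 (minus strand), from 46360834 to 46537170 and has 35 exons in its longest coding transcript. Its counts of 932, 1440 and 1042 in control and 876, 1084 and 1025 in knockout libraries correspond to 67.1, 83.3 and 84.6 CPM against 75.7, 82.3 and 89.6 CPM. The groups overlapped, control replicate 1 was the lowest library, and the log2 fold change was 0.08 (SE 0.08), or -0.02 without control replicate 1.

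CELSR2, on the plus strand of chromosome 1 from 109250019 to 109275750, has 34 exons. Its counts were 816, 1125 and 787 in control and 470, 594 and 594 in knockout libraries. Its level was 58.7, 65.1 and 63.9 CPM in control and 40.6, 45.1 and 52.0 CPM in knockout libraries, without overlap. The log2 fold change was -0.45 (SE 0.08), a fall of 1.36-fold, with a median of 0.03 over 32 tested neighbours. CELSR3, the third gene of the family, was low, at 2.42 CPM in control and 3.40 CPM in knockout libraries, and its log2 fold change of 0.51 (SE 0.28) did not pass.

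The epithelial protocadherins moved in opposite directions. PCDH1, a protocadherin of airway and skin epithelium, rose. It lies on chromosome 5 (minus strand), from 141853111 to 141879246, with 5 exons in its longest coding transcript. It had 2754, 3466 and 2435 counts in the control libraries, or 198, 201 and 198 CPM, against 3096, 3636 and 3028 in the knockout libraries, or 268, 276 and 265 CPM. The libraries of each group lay close together and the groups were apart, with a log2 fold change of 0.44 (SE 0.05), a rise of 1.36-fold. The 38 tested genes around it had a median of -0.004.

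PCDH7, a protocadherin whose tail binds a protein phosphatase, fell. It lies on chromosome 4 (plus strand), from 30720415 to 31146805, a span of 426.4 kb in which its longest coding transcript has 3 exons. It had 1880, 2609 and 1879 counts in the control libraries, or 135, 151 and 153 CPM, against 715, 799 and 678 in the knockout libraries, or 61.8, 60.7 and 59.3 CPM. The 3 knockout libraries were nearly alike, and each lay below 0.5 of the level of every control library. The log2 fold change was -1.27 (SE 0.06), a fall of 2.41-fold. No other tested gene lay within 2 Mb of it.

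**Figure D3:**
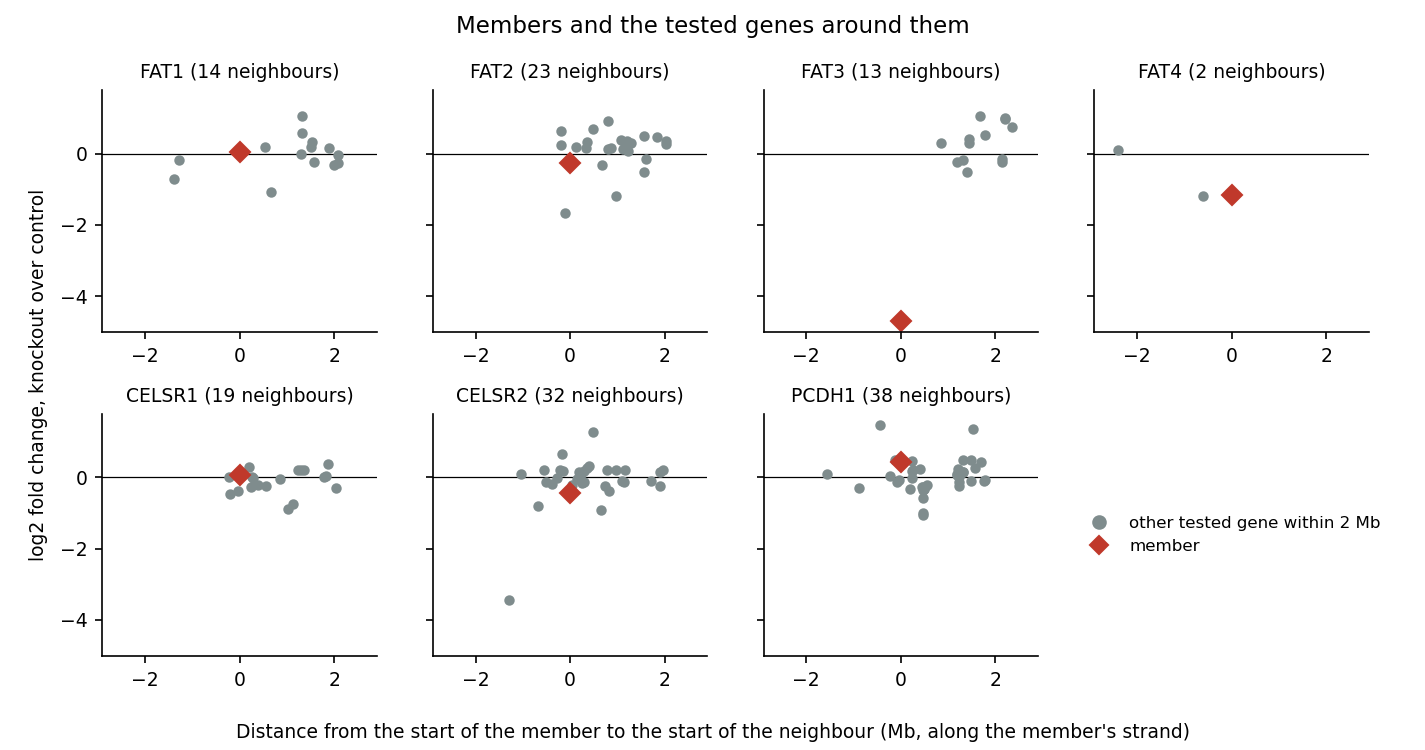
Log2 fold change of 7 tested genes (diamonds) and of the other tested genes within 2 Mb (grey points), by distance between start sites in Mb along the strand of the gene in the title. FAT3 lies at -4.70, below each of its 13 neighbours, while FAT4 has a neighbour at -1.19 beside its own -1.17; PCDH7 had no tested neighbour and DCHS1 was not tested.

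The make-up of atypical cadherin reads changed with these differences. Summed over the 9 genes, the level was 1613, 1720 and 1701 CPM in control and 1458, 1508 and 1566 CPM in knockout libraries, so the knockout libraries were lower without overlap. FAT2 made up 43.95% ± 0.682 of that sum in control and 40.71% ± 1.15 in knockout libraries, and FAT1 24.89% ± 0.760 and 28.69% ± 0.624 (SD, n = 3 each). PCDH1 went from 11.85% ± 0.370 to 17.86% ± 0.826, and PCDH7 from 8.71% ± 0.297 to 4.02% ± 0.227. FAT3 went from 1.91% ± 0.339 to 0.0796% ± 0.0186. These shares add up to a fixed whole, so the share of FAT1, whose level did not pass the test, can rise where others fall. They also weight long transcripts more than short ones.

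**Figure D4:**
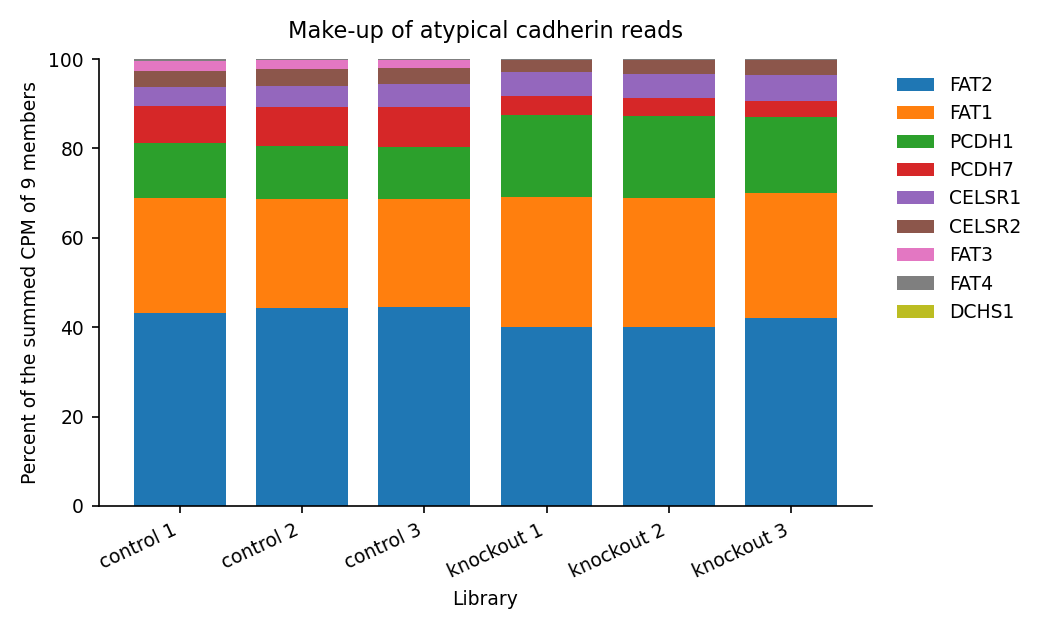
Share of each gene in the summed CPM of the 9 genes, in percent, for each of 6 libraries. PCDH1 takes 11.6% to 12.3% in the control and 16.9% to 18.4% in the knockout libraries, while PCDH7 takes 8.39% to 8.97% and 3.79% to 4.24%.

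Most genes on the lists of other atypical cadherins and protocadherins were too low to test. Of 12 other atypical cadherins 4 were tested, 1 fell and 3 did not pass (median -0.19). The one that fell was CDH23, a cadherin of the hair bundles of the inner ear, from 40, 27 and 45 counts to 5, 6 and 7 counts (log2 fold change -2.39, SE 0.41; adjusted p = 8.54e-06 by edgeR). The 40 tested genes around CDH23 had a median of -0.25, and it overlaps VSIR on the opposite strand. The calsyntenin gene CLSTN1 had a value of 0.12 and CLSTN3 one of -0.50, and neither passed. Of 9 other non-clustered protocadherins 2 were tested, PCDH9 and PCDH18, and both were lower in the knockout. Their knockout libraries, like those of CDH23, lay below the filter's minimum count of 10. All of these genes entered through the control libraries alone, so a fall was the only outcome open and nothing is read from it. PCDH9 had 33, 49 and 47 counts in control and 1, 0 and 0 counts in knockout libraries, a ratio of 107 with a 95% counting interval of 18.9 to 4269. PCDH18 had 36, 41 and 45 counts against 3, 2 and 9 (log2 fold change -2.84, SE 0.44, adjusted p = 1.15e-06 in edgeR's test; -3.75 without knockout replicate 3). The 7 tested genes around PCDH18 had a median of -0.03, and PCDH9 had no tested neighbour. Of 16 beta-cluster protocadherins 0 passed the filter, and their summed level was 0.984 to 1.14 CPM in control and 0.951 to 1.52 CPM in knockout libraries. The gamma cluster, looked at after its values were seen, had 9 tested genes of 22, with 0 up, 2 down and 7 not past the threshold (median -0.32). The 2 were PCDHGB6 (27, 27 and 19 counts in control against 5, 9 and 15 in knockout libraries, log2 fold change -1.06, SE 0.40) and PCDHGA9 (21, 30 and 22 against 5, 15 and 10, -1.02, SE 0.39). Both were picked by their values, so their p is not given. Gamma-cluster transcripts share their last exons, so reads may be split among these genes, and all 9 are among the 38 tested neighbours of PCDH1.

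Classical and related cadherins, of which the classical ones join cells at adherens junctions, had 9 tested members of 22. Of these 2 were up, 4 down and 3 not past the threshold (median -0.48). The neural type II cadherin gene CDH8 fell by 2.74 on the log2 scale (SE 0.10), from 50.1 to 7.51 CPM. CDH13, which encodes a membrane-anchored cadherin without a cytoplasmic tail, fell by 0.76 (SE 0.06), and it lies near SDR42E1 on chromosome 16, where 27 of 27 tested genes within 2 Mb of CDH13 were below 0 (median -0.68). CDH2, the neural cadherin gene, fell by 0.89 (SE 0.07) and CDH26 by 1.67 (SE 0.31). Adjusted p was at most 2.90e-05 for these 4 in edgeR's test. Of the tested genes within 2 Mb, 1 of 3 around CDH2 and 6 of 17 around CDH26 were below 0. CDH8 had no tested neighbour. CDH1, the epithelial cadherin gene, was at 423 CPM in control and 430 CPM in knockout libraries (log2 fold change 0.03, adjusted p = 0.673 in edgeR's test), and was named after its value was seen.

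Planar polarity genes, the partners of CELSR1 and CELSR2, had 19 tested members of 21, with 2 up, 6 down and 11 not past the threshold (median -0.13). PTK7, a pseudokinase receptor of planar polarity, fell by 0.59 on the log2 scale (SE 0.05), from 160 to 106 CPM, and the Frizzled receptor gene FZD6, which orients hair, by 0.39 (SE 0.05). Of the Dishevelled adaptors DVL2 fell by 0.57 (SE 0.08) and DVL1 rose by 0.40 (SE 0.06). Adjusted p was at most 1.93e-06 for these 4 in edgeR's test. Within 2 Mb of DVL2, on chromosome 17, 59 of 71 tested genes were below 0. The same count was 26 of 54 for PTK7, 4 of 10 for FZD6 and 17 of 41 for DVL1. Any relation of these genes to their neighbours was not tested.

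Genes of the Fat-Dachsous and Hippo pathways had 18 tested members of 20, with 10 up, 3 down and 5 not past the threshold (median 0.25). SAV1, the scaffold of the Hippo kinases, rose from 27.3 to 53.3 CPM (log2 fold change 0.97, SE 0.08). WWTR1, which encodes the coactivator TAZ held back by those kinases, rose by 0.83 (SE 0.06), and AMOTL1, an angiomotin that binds the coactivators, by 0.75 (SE 0.05). MPDZ, a scaffold of many PDZ domains that binds FAT4, had 39, 54 and 35 counts in control and 0 in each of 3 knockout libraries. It entered the test through the control libraries alone, so a fall was the only outcome open and nothing is read from its direction. It was at least 35.5-fold lower, with 3 counts over the summed knockout libraries as the floor. That bound leaves out the counting error of the control libraries, at 2.94 CPM (95% interval 2.455 to 3.499). The median of the list is the same with MPDZ at that bound. Adjusted p was at most 1.12e-10 for these 4 in edgeR's test. The angiomotins did not move together: AMOTL2 rose by 0.49 (SE 0.07), while AMOT fell by 1.98 (SE 0.20), from 8.88 to 2.23 CPM. AMOT and AMOTL2 were named after their values were seen.

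**Figure D5:**
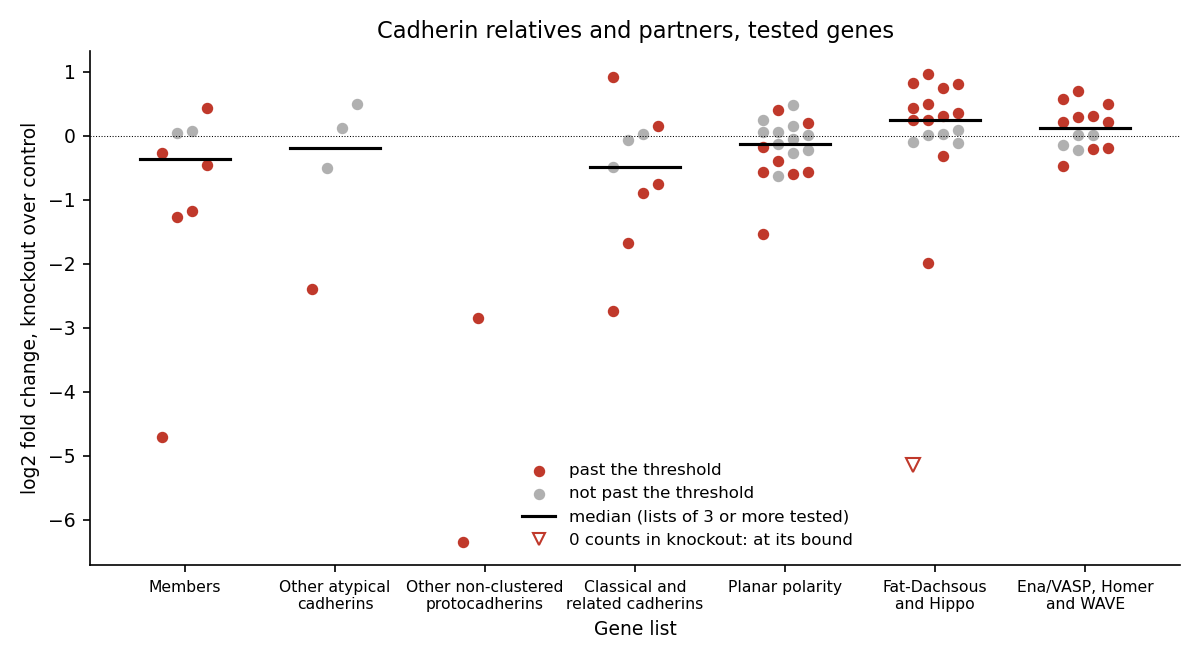
Log2 fold change of knockout over control for the tested genes of 7 lists, 1 point per gene, with the median as a line for lists of 3 or more tested genes; the open triangle is MPDZ at its bound, with 0 counts in the knockout. The members spread from -4.70 to 0.44, and the Fat-Dachsous and Hippo list has a median of 0.25.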

How the data were processed

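The data are a single deposited table of unnormalized counts of reads for each gene, whose 6 library columns were matched to samples by name. Per the submitters' processing notes the reads were placed on GRCh38; the aligner, the counter and its use of strand were not given in the sources used here, so reads of overlapping antisense genes may not be told apart. Libraries of a group differed pairwise beyond sampling noise (chi-square of 2.65 to 4.49 per degree of freedom, over genes with 20 or more counts), and each was kept as a replicate.

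The test was that of edgeR 4.0.16 (R 4.3.3): filterByExpr (minimum count 10, minimum total 15), TMM scaling and the robust quasi-likelihood F test, two-sided, over 6 libraries without a block, Benjamini-Hochberg adjusted over 12293 genes. The SE is the size of the log2 fold change divided by the root of F. Gene positions, exons and lengths came from GENCODE release 29 (GRCh38), and promoter windows from RefSeq (GRCh38.p14). The genes and lists were chosen with earlier results of these data known. Named by rule were the 9 genes, SDR42E1, and up to 4 genes with the smallest adjusted p past the threshold from each list; other names were chosen after their values were seen. Neighbours are tested genes whose span lies within 2 Mb. Intervals are 95% and exact, and cover counting error only. Alternatives were DESeq2 1.42.0, limma-voom (limma 3.58.1), RLE and upper-quartile scaling, 2 other filters, a replicate block and leaving out each library.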

Additional observations from a re-analysis of the deposited data

How the results depend on the processing

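Under each of 13 other settings the same 6 of the 9 genes were called, 5 lower and 1 higher: FAT2, FAT3, FAT4, CELSR2, PCDH7 and PCDH1. Nothing is read from this number, since the genes were chosen with this comparison in view. Log2 fold changes ran from -4.86 to -4.52 for FAT3, -1.28 to -1.07 for FAT4, -1.32 to -1.24 for PCDH7, -0.54 to -0.37 for CELSR2, -0.31 to -0.22 for FAT2 and 0.41 to 0.46 for PCDH1. FAT1 (0.02 to 0.07) and CELSR1 (-0.02 to 0.14) did not pass under any of these, and CELSR1 was below 0 only without control replicate 1. Without a filter DCHS1 had a log2 fold change of -1.16 (SE 1.20), and -1.15 in DESeq2 (SE 1.65), and neither passed. Over all genes, against 6197 calls among 12293 tested, DESeq2 made 5308 among 14370. Leaving out 1 library gave 5338 to 6074 calls among 12383 to 12555 tested genes. All 19 further list genes followed, and SDR42E1, kept their direction and call under these settings. Nothing is read from this for the 19, since they were picked from these same counts by their smallest adjusted p. The fit of MPDZ and PCDH9, at or near 0 counts in the knockout, depends on the prior count.

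Deviations of libraries with the same number were not correlated (0.02, -0.09 and -0.01), and 0 of 6 libraries matched their own number best, so no pairing was assumed. With the replicate block, 6425 of 12293 tested genes and the same 6 of the 9 were called. Depth limits DCHS1 most, and the knockout level of FAT3, which rests on 44 counts.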

Other observations

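Genes of the Ena/VASP, Homer and WAVE groups, actin regulators and scaffolds, had 14 tested genes of 15, with 7 up, 3 down and 4 not past the threshold (median 0.12). ENAH, the Ena/VASP protein bound by FAT1, was at 343 CPM in control and 249 CPM in knockout libraries, a fall of 0.46 on the log2 scale (SE 0.05). It lies on the long arm of chromosome 1, where 21 of 23 tested genes within 2 Mb were below 0 (median -0.30). The scaffold genes HOMER1, HOMER2 and HOMER3 rose by 0.50 (SE 0.07), 0.58 (SE 0.08) and 0.29 (SE 0.07). Adjusted p was at most 0.000676 for these 4 by edgeR. Tested neighbours below 0 were 11 of 19 for HOMER1, 9 of 27 for HOMER2 and 33 of 64 for HOMER3. EVL, the other Ena/VASP relative, had 1 count over 6 libraries, and VASP rose by 0.22 (SE 0.06). Of 9 genes of the WAVE complex, which drives branched actin, 3 rose, 2 fell and 4 did not pass (median 0.01). WASF3 rose by 0.70 (SE 0.19), BRK1 by 0.31 (SE 0.08) and WASF2 by 0.22 (SE 0.07), and ABI1 and ABI2 fell by 0.18 and 0.20. CYFIP1, CYFIP2, NCKAP1 and WASF1 had values of 0.01, -0.15, 0.02 and -0.22 that did not pass. VASP, EVL and the WAVE genes were named after their values were seen.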
